A study of Mus musculus with 12 samples.

Results

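The insulin-like growth factor axis of the mouse kidney cortex was described from 10 genes, taken by symbol from a count table of 24452 gene symbols: the ligands Igf1 and Igf2, the receptors Igf1r and Igf2r, and the binding proteins Igfbp1, Igfbp3, Igfbp4, Igfbp5, Igfbp6 and Igfbp7. All 10 passed the filter on low counts and were tested among 14618 genes. The data were 12 stranded mRNA sequencing libraries, 3 in each of 4 groups, all labelled as kidney cortex of adult male C57BL/6 mice. GN_captopril and GN_water were mice with glomerulonephritis (GN, inflammation of the filtering units) labelled as given captopril or water. Control_captopril and Control_water were mice without GN under the same treatment labels. To raise GN, horse spleen apoferritin, which is foreign to the mouse and is deposited in glomeruli as immune complexes, was injected intraperitoneally at 10 mg 5 times a week, with 100 micrograms of lipopolysaccharide as adjuvant 3 times a week, over 6 weeks. Controls were injected with saline on that schedule, and kidneys were taken at week 9. Captopril blocks angiotensin-converting enzyme, and its dose is not given in the sources used here. Whether a library came from 1 mouse or from a pool was not in the labels, so p-values measure the spread between these libraries.

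IGF-I and IGF-II act through the IGF-I receptor, a tyrosine kinase that signals through insulin receptor substrates to AKT and mTOR. Igf2r, the cation-independent mannose 6-phosphate receptor, takes up IGF-II for breakdown. The binding proteins hold the ligands in plasma and tissue, and proteases such as pappalysins release them. Liver is the main source of circulating IGF-I, under growth hormone, while the kidney makes IGF-I and binding proteins locally.

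The libraries held 14.2 to 22.8 M counts (M, mega), and Spearman correlations across genes within a group were 0.991 to 0.996. Kidney markers were present: a proximal tubule sum of 6 genes was 10004 to 11575 CPM (read counts scaled to the library total) in GN_captopril, 7674 to 8249 in GN_water, 8975 to 9305 in Control_captopril and 11975 to 13279 in Control_water. Sex-linked transcripts went against the label of 6 of the 12 libraries. The sum of 4 Y-linked genes was 124 to 129 CPM in GN_captopril and 121 to 144 CPM in Control_water, but at most 0.0458 CPM in GN_water and 0.101 CPM in Control_captopril. Xist was 181 to 212 CPM in GN_water and 314 to 375 CPM in Control_captopril, and at most 0.182 CPM in the other libraries. Renin (Ren1), which angiotensin-converting enzyme inhibition is known to raise, averaged 543 ± 132 CPM in the libraries labelled GN_captopril and 24.8 ± 4.9 CPM in GN_water, but 74.8 ± 10.1 CPM in those labelled Control_captopril and 1340 ± 394 CPM in Control_water (SD, n = 3 each). The labels were kept. Each comparison between treatment labels within a disease label therefore also sets Y-linked against Xist libraries, as does each GN comparison within a treatment label. GN averaged over the treatment labels has both marker sets on each side. GN_water against Control_captopril and GN_captopril against Control_water each keep the marker set but differ in treatment label. The interaction, defined as the GN difference under captopril minus that under water, is the same contrast as Y-linked against Xist libraries, so these cannot be told apart. Adrenal cortex transcripts (7 genes) summed to 354 CPM in Control_captopril 3 and 119 CPM in GN_captopril 3, against 0.931 to 19.3 CPM in the other libraries.

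Per kilobase of exon, averaged over the 12 libraries, Igfbp7 had the highest level of the 10 genes at 1187 CPM per kb. Igfbp4 followed at 239, Igfbp3 at 104 and Igfbp5 at 76.4 CPM per kb. Igfbp1 (11.5), Igf2r (10.2), Igf1r (9.5), Igf2 (7.41) and Igfbp6 (5.19) formed a lower set in CPM per kb, and Igf1 was lowest at 1.71 CPM per kb. Igf2 varied widely around its mean, at 0.0825 CPM per kb in GN_captopril and 0.205 in Control_water, below Igf1 there (1.65 and 0.924). It was at 8.44 CPM per kb in GN_water and 20.9 in Control_captopril. These lengths came from GENCODE vM21, which need not be the annotation the authors counted on.

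**Figure D1:**
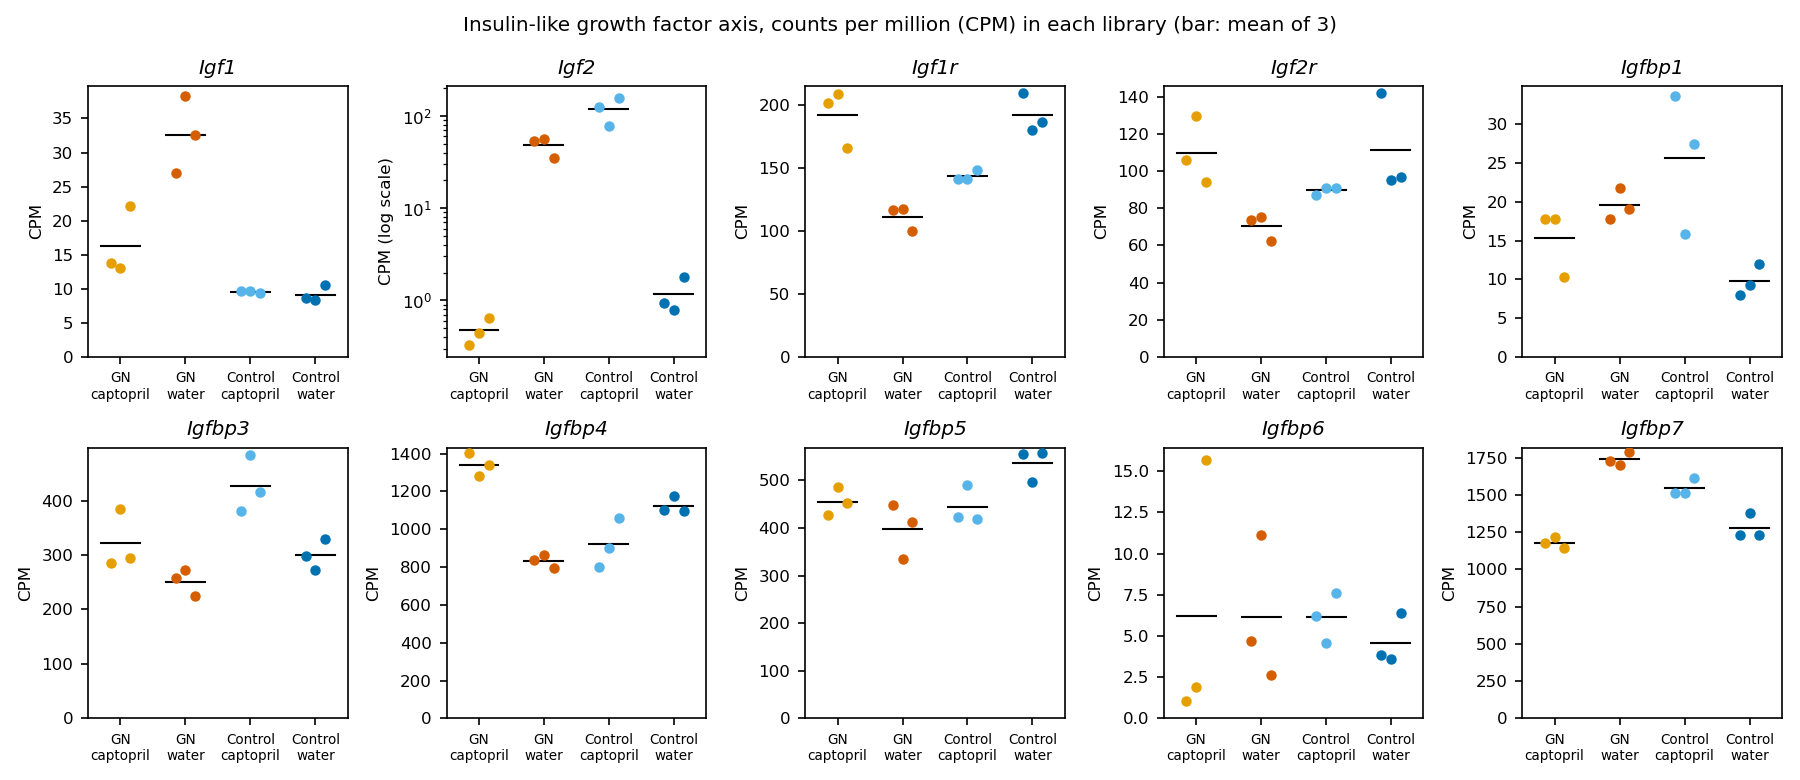
CPM of the 10 genes in each library (y axis; log scale for Igf2 only, from 0 otherwise) by group (x axis); points are libraries and bars are means of 3. Igf1 is above 13 CPM in all 6 GN libraries and below 11 CPM in all 6 controls, whereas Igf2 is above 35 CPM in GN_water and Control_captopril and below 2 CPM in the other groups.

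Igf1 was higher in GN. Igf1 (chr10:87858265-87937042, plus strand, GRCm38) encodes the ligand IGF-I. Igf1 was at 13.75, 13.0 and 22.2 CPM in GN_captopril, 27.0, 38.3 and 32.6 CPM in GN_water, 9.60, 9.63 and 9.31 CPM in Control_captopril and 8.57, 8.37 and 10.5 CPM in Control_water. All 6 GN libraries lay above all 6 control libraries, which held for none of the other 9 genes. Of all tested genes, 6.95% had no overlap between GN and control libraries, in either direction. Averaged over the treatment labels, the log2 fold change of GN against control was 1.30 ± 0.13 (SE; adjusted p = 1.11e-05, edgeR quasi-likelihood test). With the marker set kept the same, it was 1.78 ± 0.18 for GN_water against Control_captopril (adjusted p = 1.31e-05) and 0.83 ± 0.19 for GN_captopril against Control_water (adjusted p = 0.0149). The second of these calls was lost without Control_water 1 (adjusted p = 0.0528), without Control_water 2 (0.0586) and without the 2 libraries with the most adrenal transcripts (log2 fold change 0.55, adjusted p = 0.0569). Among GN libraries, Igf1 was lower under the captopril label, with a log2 fold change of -1.01 ± 0.17 for GN_captopril against GN_water (adjusted p = 0.000433). Control_captopril and Control_water overlapped, with a log2 fold change of 0.06 ± 0.20 (adjusted p = 0.848). The difference between these treatment differences, the interaction, was -1.07 ± 0.26 (adjusted p = 0.00393).

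Macrophage transcripts, like Igf1, were higher in GN. The sum of Adgre1, Csf1r, Cd68 and Lyz2, of which none was at 0 in all libraries, was 394 to 791 CPM in GN_captopril, 791 to 1140 CPM in GN_water, 95.9 to 135 CPM in Control_captopril and 118 to 127 CPM in Control_water. GN_captopril 3, with the highest Igf1 of its group, also had the highest macrophage sum of that group. The GN_water libraries had the same order in both. Within GN_captopril and within each control group, the orders of the libraries differed. Control_captopril 3 had the highest macrophage sum of its group (135 CPM) but the lowest Igf1 (9.31 CPM). A fibroblast and mesangium sum of 5 genes was 167 to 288 CPM in GN_captopril and 279 to 383 CPM in GN_water, against 161 to 181 CPM in Control_captopril and 142 to 172 CPM in Control_water. GN_captopril 3 was also highest of its group in this sum, in the adrenal cortex sum (119 CPM) and in a sum of fat genes (262 CPM). It was lowest of its group in other sums, such as that of proximal tubule (10004 CPM). The part of all these transcripts in the Igf1 difference was not tested. In bulk tissue, more cells of a type and more RNA per cell cannot be told apart.

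**Figure D2:**
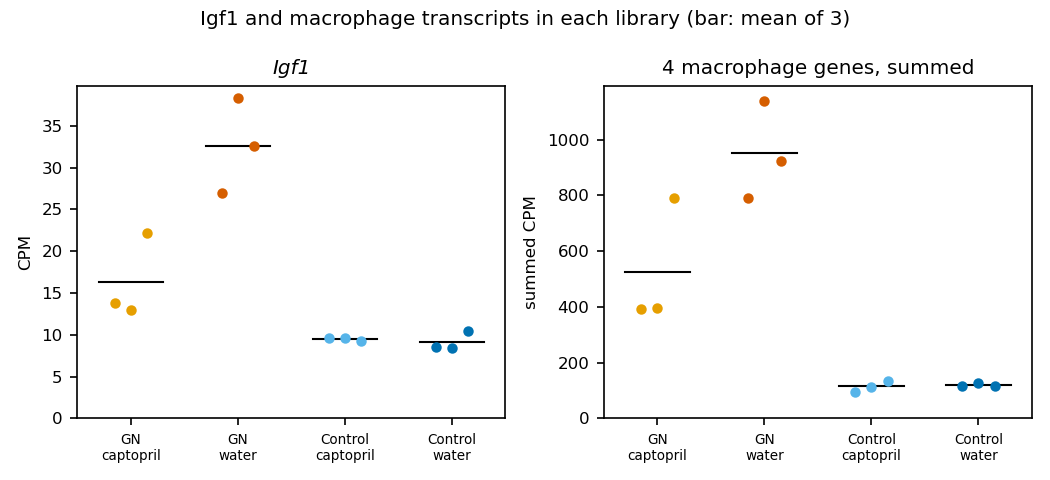
Igf1 (left, CPM) and the summed CPM of Adgre1, Csf1r, Cd68 and Lyz2 (right) in each library by group; points are libraries and bars are means of 3. By group mean, GN_water is highest in both panels, and GN_captopril lies between GN_water and the controls. GN_captopril 3, at 22.2 CPM and 791 summed CPM, is level with GN_water 1 in the right panel.

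Igf2 differed most among the 10 genes, and along the marker sets. Igf2 (chr7:142650766-142666816, minus strand, GRCm38) is an imprinted gene whose ligand IGF-II is abundant before birth. It was at 0.332, 0.439 and 0.646 CPM in GN_captopril (5, 8 and 9 counts), 54.0, 55.7 and 35.2 CPM in GN_water, 126, 78.6 and 155 CPM in Control_captopril and 0.931, 0.789 and 1.81 CPM in Control_water (20, 13 and 28 counts). The 6 Xist libraries were thus all above 35 CPM and the 6 Y-linked libraries all below 2 CPM. The log2 fold change was -6.68 ± 0.42 for GN_captopril against GN_water (adjusted p = 7.24e-08) and 6.70 ± 0.34 for Control_captopril against Control_water (adjusted p = 1.11e-08). The captopril label thus went with about 102-fold lower Igf2 in GN and about 104-fold higher Igf2 in controls. The captopril label difference averaged over disease labels was 0.01 on the log2 scale (adjusted p = 0.997). The interaction was -13.38 ± 0.53 (adjusted p = 3.38e-10).

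Within the Xist libraries, Igf2 was lower in GN_water than in Control_captopril, which also differ in treatment label. GN_water against Control_captopril had a log2 fold change of -1.31 ± 0.22 (adjusted p = 0.000554), with all 3 GN_water libraries below all 3 of Control_captopril. GN_captopril against Control_water had -1.28 ± 0.78 at far fewer counts and did not pass (adjusted p = 0.313). Averaged, the GN difference was -1.29 ± 0.40 (adjusted p = 0.0254). That call was lost without Control_water 1 (adjusted p = 0.0513), Control_water 3 (0.0926), GN_captopril 1 (0.0578) or GN_captopril 2 (0.061). Adrenal sums were 1.13, 19.3 and 119 CPM in GN_captopril 1, 2 and 3, 0.946 to 1.37 CPM in GN_water, 6.15, 1.43 and 354 CPM in Control_captopril 1, 2 and 3 and 0.931 to 1.16 CPM in Control_water. Within GN_captopril and within Control_captopril, the libraries had the same order in Igf2 as in the adrenal sum. Within GN_water and within Control_water, where no adrenal sum exceeded 1.37 CPM, the orders differed. The part of adrenal transcripts was not tested. Without the 2 libraries with the most adrenal transcripts the interaction of Igf2 was -13.40.

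The antisense gene Igf2os, examined after the values of Igf2 were seen, overlaps Igf2 by 7124 bases on the opposite strand, and whether counting used strand is not given in the sources used here. Igf2os was at 0, 0.0549 and 0.0718 CPM in GN_captopril, 2.06, 1.85 and 1.38 CPM in GN_water, 3.99, 2.95 and 4.05 CPM in Control_captopril and 0.0466, 0.0607 and 0.0645 CPM in Control_water. It was high in the same 6 libraries as Igf2, at a much lower level, and reads of the pair may be shared. H19, the untranslated RNA of the same imprinted cluster, had 0 to 12 counts in every library and was not tested.

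Of 4 Igf2 promoter windows in the RefSeq table (GRCm38.p6, 250 bases before to 50 after a transcript start), 1 is shown because it holds the most matches to the motifs searched. It lies at chr7:142657447-142657746 on the minus strand, with 2 GC boxes in capitals. Which promoter was used was not measured here.
Igf2 promoter 4: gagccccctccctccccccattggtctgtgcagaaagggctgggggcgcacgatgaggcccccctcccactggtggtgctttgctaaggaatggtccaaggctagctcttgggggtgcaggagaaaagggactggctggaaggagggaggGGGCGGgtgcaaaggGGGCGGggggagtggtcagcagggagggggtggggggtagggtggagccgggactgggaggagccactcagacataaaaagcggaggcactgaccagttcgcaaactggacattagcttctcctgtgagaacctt
The motifs searched, on both strands, were TTCNNNGAA (the STAT5 motif), CAAAACA (the insulin response motif), GTAAACA (a FOXO motif), TATAAA (the TATA box) and GGGCGG (the GC box). Of 32851 RefSeq promoter windows of this length, TTCNNNGAA was found in 8.3%, CAAAACA in 6.3%, GTAAACA in 3.6%, TATAAA in 13.6% and GGGCGG in 35.7%. A match describes the letters only.

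Both receptors were lower in the Xist libraries. Igf1r (chr7:67952827-68233668, plus strand, GRCm38), the signalling receptor, was at 201, 208 and 165 CPM in GN_captopril, 116, 117 and 99.5 CPM in GN_water, 141, 141 and 148 CPM in Control_captopril and 209, 180.2 and 186 CPM in Control_water. Every Y-linked library exceeded every Xist library, and the interaction was 1.21 ± 0.13 (adjusted p = 4.46e-06). Igf1r was higher in GN_captopril than in GN_water (log2 fold change 0.79 ± 0.09, adjusted p = 1.64e-05) and lower in Control_captopril than in Control_water (-0.42 ± 0.09, adjusted p = 0.00284). With the marker set kept, it was lower in GN_water than in Control_captopril (-0.37 ± 0.09, adjusted p = 0.00793), while GN_captopril and Control_water averaged 191 ± 22.99 and 192 ± 15.3 CPM (SD, n = 3 each; adjusted p = 0.986).

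The average GN difference of Igf1r was -0.19 ± 0.06 (adjusted p = 0.0409), a small change close to the threshold. It did not pass without GN_water 3 (adjusted p = 0.0575), GN_captopril 3 (0.0769), Control_captopril 1 (0.0543), Control_captopril 2 (0.0591), Control_captopril 3 (0.0809) or Control_water 1 (0.0931), nor without the 2 adrenal-rich libraries (0.139).

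Igf2r (chr17:12682406-12769664, minus strand, GRCm38), the clearance receptor, had the same order of groups. It was at 106, 129.6 and 93.9 CPM in GN_captopril, 73.7, 75.3 and 62.6 CPM in GN_water, 87.2, 90.9 and 90.6 CPM in Control_captopril and 142, 95.1 and 96.8 CPM in Control_water. Y-linked libraries all lay above Xist libraries, by as little as the gap between 93.9 CPM in GN_captopril 3 and 90.9 CPM in Control_captopril 2. The interaction was 0.96 ± 0.21 (adjusted p = 0.00165). GN_captopril exceeded GN_water by 0.64 ± 0.15 on the log2 scale (adjusted p = 0.00309), and neither Control_captopril against Control_water (-0.32 ± 0.14, adjusted p = 0.114) nor the averaged GN difference (-0.18 ± 0.10, adjusted p = 0.201) passed. Airn, the imprinted antisense RNA that silences the paternal Igf2r copy in mice, overlaps Igf2r by 28354 bases on the opposite strand. It was at 3.59, 5.43 and 3.23 CPM in GN_captopril, 2.38, 2.14 and 2.13 CPM in GN_water, 1.88, 2.12 and 1.16 CPM in Control_captopril and 5.49, 6.49 and 6.58 CPM in Control_water. Airn and Igf2r were thus high in the same libraries, and the interaction of Airn was 2.72 ± 0.32 (adjusted p = 1.26e-05).

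Among the binding proteins, Igfbp3 passed in GN averaged over treatment labels, as did Igfbp5 closer to the threshold (adjusted p = 0.0466, edgeR). Igfbp3 (chr11:7206086-7213923, minus strand, GRCm38) encodes the main IGF carrier of plasma. It was at 285, 384 and 295 CPM in GN_captopril, 257, 272 and 225 CPM in GN_water, 380.1, 485 and 416 CPM in Control_captopril and 299, 273 and 330.2 CPM in Control_water. GN_water was lowest and Control_captopril highest. The averaged GN difference was -0.33 ± 0.09 (adjusted p = 0.00981), and it passed whichever library was left out (adjusted p 0.00153 to 0.0254). In the Xist libraries, GN_water against Control_captopril gave -0.76 ± 0.12 (adjusted p = 0.000404). In the Y-linked libraries, GN_captopril against Control_water gave 0.10 ± 0.12 (adjusted p = 0.64). The captopril label went with higher Igfbp3 in both GN (0.36 ± 0.12, adjusted p = 0.0282) and controls (0.51 ± 0.12, adjusted p = 0.00565). The GN call was lost without GN_captopril 2 (adjusted p = 0.152) or GN_water 3 (0.0645). By the labels, Igfbp3 was the only one of the 10 genes that passed in the same direction in GN and in controls, and its interaction was -0.15 ± 0.17 (adjusted p = 0.485). Igf2, Igf1r, Igfbp4 and Igfbp7 passed in opposite directions. Both statements rest on the direction of Control_captopril against Control_water, where renin goes against the labels, and with that direction turned they would change places.

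Igfbp4 and Igfbp7, the most abundant binding proteins, ran in opposite directions along the marker sets. Igfbp4 (chr11:99041244-99054392, plus strand, GRCm38) encodes an inhibitory binding protein that pappalysin-1 cleaves. Igfbp4 was at 1402, 1285 and 1338 CPM in GN_captopril, 839, 864 and 798 CPM in GN_water, 803, 900.5 and 1060 CPM in Control_captopril and 1101, 1175 and 1098 CPM in Control_water. Each Y-linked library was above each Xist library, and the interaction was 0.98 ± 0.12 (adjusted p = 1.41e-05). Igfbp4 was higher in GN_captopril than in GN_water (0.69 ± 0.08, adjusted p = 2.41e-05) and lower in Control_captopril than in Control_water (-0.29 ± 0.08, adjusted p = 0.0165). The control call was lost without Control_captopril 1 (adjusted p = 0.0605), Control_captopril 2 (0.056) or Control_water 2 (0.0627).

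Igfbp7 (chr5:77349240-77408041, minus strand, GRCm38), a secreted low-affinity IGF binding protein found in vessel walls and used in urine as a marker of acute kidney injury, was at 1174, 1216 and 1146 CPM in GN_captopril, 1726, 1703 and 1786 CPM in GN_water, 1510.1, 1511 and 1614 CPM in Control_captopril and 1228, 1380.3 and 1231 CPM in Control_water. Here each Xist library was above each Y-linked library, with an interaction of -0.83 ± 0.08 (adjusted p = 1.75e-06). The log2 fold change was -0.56 ± 0.06 for GN_captopril against GN_water (adjusted p = 5.17e-06) and 0.27 ± 0.06 for Control_captopril against Control_water (adjusted p = 0.00234). Averaged over treatment labels, Igfbp7 showed 0.03 ± 0.04 with GN (adjusted p = 0.667). GN_water exceeded Control_captopril by 0.17 ± 0.06 (adjusted p = 0.0358), a call lost without any 1 GN_water library (adjusted p 0.137 to 0.283), without Control_captopril 1 (0.115) or Control_captopril 2 (0.106), and with no filter on low counts (0.0525). Several marker sums also ran higher in the Xist than in the Y-linked libraries. An endothelial sum of 5 genes was at 367 to 433 CPM in GN_captopril, 490 to 529 CPM in GN_water, 439 to 459 CPM in Control_captopril and 366 to 413 CPM in Control_water. A podocyte sum of 4 genes was at 279 to 358 CPM in GN_captopril, 448 to 559 CPM in GN_water, 512 to 541 CPM in Control_captopril and 357 to 408 CPM in Control_water. A thick ascending limb sum of 2 genes was at 2742 to 3537 CPM in GN_captopril, 5036 to 6370 CPM in GN_water, 4922 to 6425 CPM in Control_captopril and 3349 to 4367 CPM in Control_water. None of these markers was at 0 in all libraries, and their part in the result was not tested. Polr2b overlaps Igfbp7 by 85 bases on the opposite strand.

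On average, Igfbp1 was highest in Control_captopril and lowest in Control_water. Igfbp1 (chr11:7197782-7202546, plus strand, GRCm38) lies beside Igfbp3 and encodes a binding protein that insulin represses in liver. It was at 17.7, 17.8 and 10.3 CPM in GN_captopril, 17.8, 21.8 and 19.1 CPM in GN_water, 33.6, 15.9 and 27.5 CPM in Control_captopril and 7.96, 9.28 and 11.99 CPM in Control_water. Control_captopril exceeded Control_water by 1.41 ± 0.26 on the log2 scale (adjusted p = 0.00103), while GN_captopril overlapped GN_water (-0.35 ± 0.25, adjusted p = 0.279). The interaction was -1.76 ± 0.36 (adjusted p = 0.00126), and the averaged GN difference was 0.14 ± 0.18 (adjusted p = 0.606). The Igfbp1 promoter of the RefSeq table is shown because the insulin response motif, in capitals, is the feature through which the gene is known to respond to insulin. It lies at chr11:7197537-7197836 on the plus strand (GRCm38.p6) and held 1 match to CAAAACA and none to the other motifs searched.
Igfbp1 promoter: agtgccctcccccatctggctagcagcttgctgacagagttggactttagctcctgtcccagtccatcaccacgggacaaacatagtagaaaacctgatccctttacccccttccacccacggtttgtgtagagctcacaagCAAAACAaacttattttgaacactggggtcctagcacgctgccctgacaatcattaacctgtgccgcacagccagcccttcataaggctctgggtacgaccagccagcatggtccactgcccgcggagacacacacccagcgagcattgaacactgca

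Igfbp5 and Igfbp6 showed small or unsteady differences. Igfbp5 (chr1:72857932-72874884, minus strand, GRCm38), a matrix-associated binding protein, was at 428, 485 and 453 CPM in GN_captopril, 448, 335 and 412 CPM in GN_water, 422, 491 and 419 CPM in Control_captopril and 556, 496 and 558 CPM in Control_water. Control_water lay above the other 3 groups. The averaged GN difference was -0.20 ± 0.07 (adjusted p = 0.0466). It did not pass with a replicate block (adjusted p = 0.0595), without the 2 adrenal-rich libraries (0.0737), or without GN_water 2 (0.0581), GN_captopril 1 (0.0917), GN_captopril 3 (0.075), Control_captopril 2 (0.11), Control_water 1 (0.0872) or Control_water 3 (0.0881). The interaction was 0.47 ± 0.14 (adjusted p = 0.0133), and it passed whichever library was left out (adjusted p 0.0033 to 0.0353). GN_water against Control_water, where the marker sets also differ, gave -0.43 ± 0.10 (adjusted p = 0.00262) without overlap. Control_captopril against Control_water gave -0.27 ± 0.10 (adjusted p = 0.0495). It did not pass with the block (0.0663), without the 2 adrenal-rich libraries (0.161), or without GN_water 3 (0.0746), GN_captopril 1 (0.0536), GN_captopril 2 (0.0532), GN_captopril 3 (0.0548), Control_captopril 1 (0.14), Control_captopril 3 (0.152), Control_water 1 (0.116) or Control_water 3 (0.139).

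Igfbp6 (chr15:102144362-102149511, plus strand, GRCm38), which binds IGF-II in preference to IGF-I, was at 1.06, 1.92 and 15.7 CPM in GN_captopril, 4.67, 11.1 and 2.62 CPM in GN_water, 6.24, 4.56 and 7.59 CPM in Control_captopril and 3.82, 3.58 and 6.38 CPM in Control_water. GN_captopril 3 was the highest of all 12 libraries, and GN_captopril 1 and GN_captopril 2 the lowest. Igfbp6 passed in none of the 9 comparisons. Without GN_captopril 3 the interaction was -2.45 (adjusted p = 0.0123) and the difference of GN_captopril from GN_water was -2.03 (adjusted p = 0.0122). A fat sum of 5 genes was 47.8, 123 and 262 CPM in GN_captopril 1, 2 and 3, 112, 154 and 78.0 CPM in GN_water, 128, 84.9 and 146 CPM in Control_captopril and 69.5, 50.9 and 99.1 CPM in Control_water. GN_captopril 3 thus held the most fat transcripts of the 12 libraries, and their part in the Igfbp6 value was not tested.

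Counted over the axis, 5 of the 10 genes passed in GN averaged over treatment labels, 1 higher (Igf1) and 4 lower (Igf2, Igf1r, Igfbp3 and Igfbp5). Of all tested genes 30.9% passed, 16.3% higher and 14.6% lower. The median log2 fold change was -0.08 over the 10 genes and -0.01 over all genes. With the marker set kept, 5 passed between GN_water and Control_captopril (30.1% of all genes): Igf1 and Igfbp7 were higher, and Igf2, Igf1r and Igfbp3 were lower. In the comparison of GN_captopril with Control_water, Igf1 alone passed (12.1% of all genes). Within treatment labels, where the marker sets also differ, 8 passed in GN_water against Control_water (51.2% of all genes) and 7 in GN_captopril against Control_captopril (39.8%). These comparisons share control libraries with the others.

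**Figure D3:**
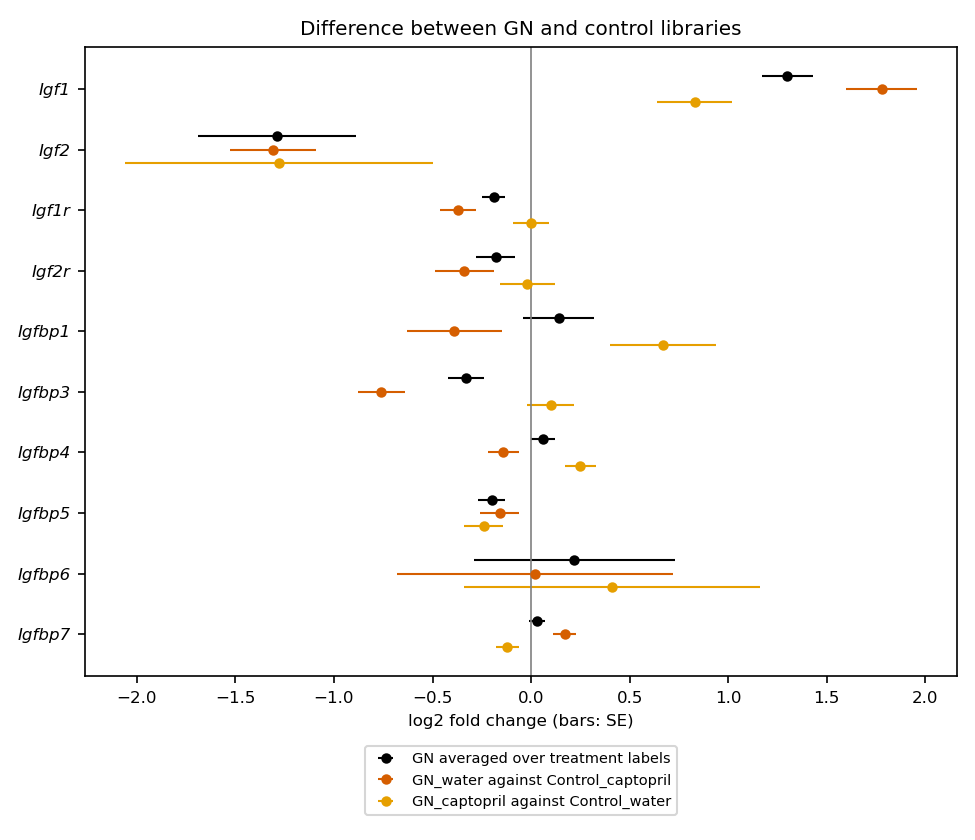
Log2 fold change of GN against control for each gene (x axis; points are edgeR estimates and bars SE), averaged over treatment labels and for the 2 comparisons that keep the marker set. Igf1 is above 0 in all 3, and Igfbp3 is at -0.76 for GN_water against Control_captopril but at 0.10 for GN_captopril against Control_water.

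Between treatment labels, 7 of the 10 genes passed in GN_captopril against GN_water (45.1% of all genes) and 7 in Control_captopril against Control_water (32.4%). In the interaction 8 passed, 4 in each direction, against 50.7% of all genes, 23.6% on the higher and 27.1% on the lower side. Between the marker sets, 5 of the 10 genes had no overlap, against 20.4% of all genes. Igf1r, Igf2r, Igfbp4 and Igfbp5 were on the higher side and Igf1, Igf2, Igfbp1 and Igfbp7 on the lower. The captopril label averaged over disease labels gave 3 calls (6.51% of all genes). This contrast also equals, with its sign turned and its size halved, the GN effect in the Xist libraries minus that in the Y-linked libraries, so it tests whether these differ. Igfbp3 was higher (0.43 ± 0.09, adjusted p = 0.0112), Igf1 lower (-0.48 ± 0.13, adjusted p = 0.0479) and Igfbp7 lower (-0.14 ± 0.04, adjusted p = 0.0487). The Igf1 call was lost when any library other than GN_water 1 or GN_captopril 3 was left out (adjusted p 0.0505 to 0.116). That of Igfbp7 was lost when any library other than Control_water 1 was left out (0.0563 to 0.181).

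**Figure D4:**
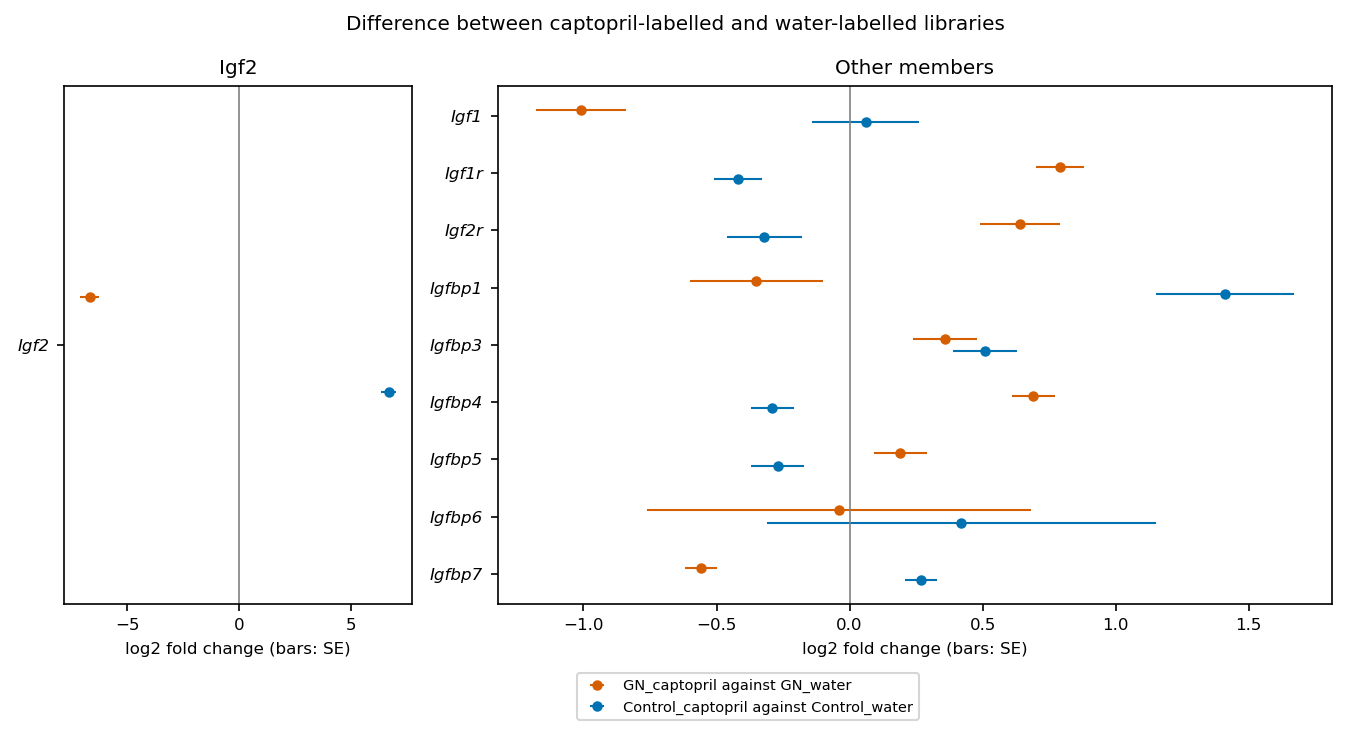
Log2 fold change of captopril-labelled against water-labelled libraries in GN and in controls for Igf2 (left) and the other 9 genes (right; points are edgeR estimates and bars SE). Igf2 is at -6.68 in GN and 6.70 in controls, and Igfbp3 passed on the same side in both, by labels that renin goes against in the controls.

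For the 3 genes whose group means spanned at least 1 log2 unit, the tested genes with the nearest pattern over the 12 libraries were sought, as the root mean square difference of log2 CPM centred per gene. Nearest to Igf1 were Slc9a9 (0.14), Emp3 (0.15) and Lbp (0.16), on this log2 scale. Lbp encodes the lipopolysaccharide binding protein of the acute phase. Igf2 had none as close among the genes searched, with Slc17a2 at 0.98, Tmprss6 at 0.99 and Abcc3 at 1.06. These distances were not scaled to the range of group means, 7.68 log2 units for Igf2 and 1.82 for Igf1. For Igfbp1 they were Spidr (0.28), Mybl1 (0.32) and Stim1 (0.34).

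Of 46 further genes of the pathway, 42 were tested. In GN averaged over treatment labels 8 were higher and 10 lower, with a median log2 fold change of -0.05, against 16.3% higher and 14.6% lower and a median of -0.01 over all tested genes. The counts by list below stand against the same shares. Among 4 tested genes of the wider family, Igfbp2 was higher and the insulin receptor Insr and the insulin receptor-related receptor Insrr were lower. Igfbp2, another binding protein, was at 2.72, 2.41 and 3.30 CPM in GN_captopril, 8.89, 8.47 and 9.24 CPM in GN_water, 0.673, 0.461 and 0.506 CPM in Control_captopril and 0.698, 2.25 and 1.61 CPM in Control_water. Its 6 GN libraries all lay above the 6 controls, and its log2 fold change was 2.46 ± 0.22 (adjusted p = 4.03e-06). Insr (-0.31, adjusted p = 0.00792) and Insrr (-0.37, adjusted p = 0.00804) were lower with overlapping libraries. None of these 4 family genes passed in GN_captopril against Control_water.

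Of 6 genes that release IGF from binding proteins or restrain that release, 2 were higher and 1 lower. Pappa2, a protease of Igfbp3 and Igfbp5, was at 5.78, 6.25 and 4.66 CPM in GN_captopril, 3.67, 5.43 and 4.15 CPM in GN_water, 0.673, 0.507 and 0.759 CPM in Control_captopril and 4.24, 2.49 and 4.32 CPM in Control_water. The low level in Control_captopril set it apart from the other groups, and the averaged GN difference was 1.68 ± 0.18 (adjusted p = 1.45e-05). Stc2, an inhibitor of pappalysins, was higher by 0.81 ± 0.10 (adjusted p = 4.21e-05), and the protease Htra1 was lower (-0.15, adjusted p = 0.0411). Stc2 averaged 8.63 CPM in GN_water, against 3.65 in GN_captopril, 3.91 in Control_captopril and 2.63 in Control_water. None of these 6 genes passed in GN_captopril against Control_water.

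Of 7 genes of growth hormone signalling, Socs3, an inhibitor of JAK signalling (1.66 ± 0.15, adjusted p = 4.91e-06), and the transcription factor Stat5a (0.28, adjusted p = 0.0242) were higher and none was lower. Socs3 was at 7.17, 7.02 and 8.32 CPM in GN_captopril, 13.6, 14.7 and 10.4 CPM in GN_water, 3.32, 3.73 and 4.05 CPM in Control_captopril and 2.98, 1.52 and 3.29 CPM in Control_water. Its GN libraries all exceeded the controls. Socs3, Jak2 and Socs2 passed as higher in GN_captopril against Control_water, where 12.1% of all genes passed. Of 22 genes downstream of the receptors, 3 were higher and 6 lower, led by the receptor-binding adaptor Grb14 (-0.40 ± 0.06, adjusted p = 0.000152), the mTOR inhibitor Tsc2 (-0.19, adjusted p = 0.00172) and the receptor substrate Irs1 (-0.34, adjusted p = 0.00319). Of the 22 genes, Tsc2 and Grb14 also passed as lower in GN_captopril against Control_water. Of 3 tested RNA-binding and imprinting genes, Igf2bp1 was lower (-0.62, adjusted p = 0.0161). Igf2bp1 passed in neither comparison that keeps the marker set.

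In the interaction, 13 of these 42 genes were on the higher and 14 on the lower side, against 23.6% and 27.1% of all tested genes. The 2 described here were chosen after their values were seen. Igfals, the acid-labile subunit that stabilises the complex of IGF and Igfbp3 in plasma, was at 20.0, 18.2 and 21.0 CPM in GN_captopril, 53.3, 48.1 and 51.4 CPM in GN_water, 51.0, 44.9 and 55.99 CPM in Control_captopril and 18.9, 18.1 and 15.8 CPM in Control_water. It split the libraries by marker set as Igf2 did (interaction -2.89 ± 0.13, adjusted p = 1.23e-09), while its averaged GN difference was 0.08 ± 0.07 (adjusted p = 0.363). Igf2bp1, which binds Igf2 mRNA, ran the other way, at 6.18, 4.77 and 4.31 CPM in GN_captopril, 0.550, 0.576 and 0.593 CPM in GN_water, 0.897, 1.38 and 0.658 CPM in Control_captopril and 7.03, 7.65 and 6.38 CPM in Control_water (interaction 5.96 ± 0.33, adjusted p = 9.73e-09). Of 3 RefSeq promoter windows of Igfals, the second, at chr17:24877981-24878280 on the plus strand (GRCm38.p6), is shown because it holds matches to 3 of the motifs. Capitals mark, in order, the FOXO motif on the opposite strand, the STAT5 motif and a GC box.
Igfals promoter 2: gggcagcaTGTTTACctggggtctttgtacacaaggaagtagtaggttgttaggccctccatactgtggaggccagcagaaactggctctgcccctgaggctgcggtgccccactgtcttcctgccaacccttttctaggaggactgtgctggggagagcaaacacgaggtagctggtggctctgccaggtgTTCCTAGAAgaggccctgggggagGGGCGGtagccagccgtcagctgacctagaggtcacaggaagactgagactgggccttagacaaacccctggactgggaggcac

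**Figure D5:**
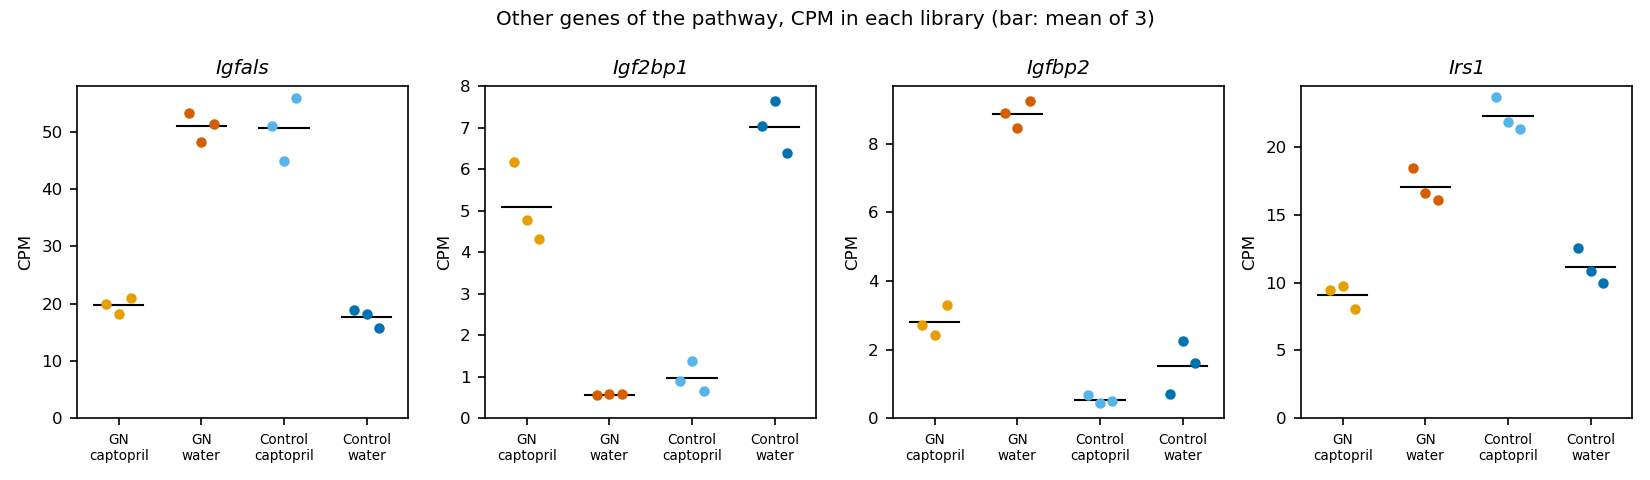
CPM of Igfals, Igf2bp1, Igfbp2 and Irs1 in each library (y axis, from 0) by group (x axis); points are libraries and bars are means of 3. Igfals and Irs1 are high and Igf2bp1 low in GN_water and Control_captopril, whereas Igfbp2 is higher in both GN groups than in the controls.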

How the data were processed

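RNA was measured by stranded mRNA sequencing of kidney cortex in 12 libraries, 3 per labelled group. The authors deposited expected counts, estimated counts of reads per gene symbol with no scaling for depth. Per the submitters' processing notes Bowtie2, Partek and mm10 were used, and no version or role is given in the sources used here. Deposited counts were exactly whole as written, zeros included, in 85.1% to 87.5% of entries per library and were rounded before testing, so overlapping genes and paralogs may share reads. A deposited RPKM table was not used.

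Genes were filtered with filterByExpr (minimum count 10, minimum total 15), scaled by TMM, and tested two-sided with the quasi-likelihood F test of edgeR 4.0.16 (R 4.3.3), using all 12 libraries and a mean for each group. Benjamini-Hochberg adjustment covered 14618 genes, at a threshold of 0.05. SEs of log2 fold changes were derived from the estimates and their F statistics. They are approximate, and least reliable at few counts or for estimates near 0. For Igf2 they were 0.40 for the GN average, 0.95 for the captopril average and 0.53 for the interaction, all from the same 12 libraries. The CPM were computed from TMM-adjusted totals. Alternatives were RLE scaling, no filter, DESeq2 1.42.0, a replicate block, leaving out each library, and leaving out both libraries with the most adrenal transcripts. Depth was 14.2 to 22.8 M counts, so genes of a few counts, such as Igf2 in GN_captopril, were measured least precisely.

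The members, the other lists and the comparisons were chosen with earlier results of these data known. All 10 members were tested in every comparison, but not every estimate is printed. GN comparisons within a treatment label are given mainly as counts of genes that passed. Of each list, up to 3 called genes with the smallest adjusted p in GN averaged over treatment labels were named, and for members whose group means of log2 CPM (prior count 2) span at least 1, the 3 nearest genes. Coordinates came from GENCODE vM21 and promoters from RefSeq, both on GRCm38. Figures were drawn with matplotlib 3.10.9.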

Additional observations from a re-analysis of the deposited data

Results flagged for a closer look

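In 8 of the 10 genes, against 50.7% of all tested genes, the GN difference itself differed between the captopril and the water label, by the test of the interaction (edgeR, adjusted over all genes). The interaction was -1.07 for Igf1, -13.38 for Igf2, 1.21 for Igf1r, 0.96 for Igf2r, -1.76 for Igfbp1, 0.98 for Igfbp4, 0.47 for Igfbp5 and -0.83 for Igfbp7, on the log2 scale. For all of them this contrast is also that of the libraries with Y-linked transcripts against those with Xist, so the treatment-by-disease difference and the marker sets cannot be told apart. The treatment reading also rests on the direction of Control_captopril against Control_water, where renin goes against the labels. With that direction turned, the interaction would test the same contrast as the captopril label average. In that average 3 of the 10 genes passed, against 6.51% of all genes. The marker sets did not overlap in Igf2, Igf1r, Igf2r, Igfbp4 and Igfbp7, and overlapped in Igf1, Igfbp1 and Igfbp5.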

How the results depend on the processing

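The replicate numbers showed no clear pairing by correlation. Deviations of same-numbered libraries correlated at -0.24 to 0.24, over 0.1 in 4 of 18 pairs. Of 36 library and group combinations, 14 correlated best with their own number. With the replicate block, more genes of the whole table passed in every comparison. In GN averaged over treatment labels these were 4684 instead of 4516, while 4 of the 10 genes passed instead of 5. Leaving out both adrenal-rich libraries, 3 passed there, and none passed in GN_captopril against Control_water, where 938 genes passed over the whole table instead of 1765. The captopril label average gave 1 call with RLE scaling and 5 with DESeq2, and GN_captopril against Control_water gave 2 with DESeq2. Leaving out 1 library gave 2 to 5 of the 10 genes in the GN average, 1 to 4 in the captopril average (523 to 1471 of all genes) and 0 to 2 in GN_captopril against Control_water (968 to 1708 of all genes). Igfbp6 changed sign in the GN average (leave-one-out range -0.78 to 0.47) without both adrenal-rich libraries (-0.69), without GN_water 2 (-0.18) and without GN_captopril 3 (-0.78), and in the interaction (range -2.45 to 0.34) without GN_water 2 (0.34) and without GN_captopril 1 (0.03). Igfbp7 changed sign in the GN average without GN_water 3 (range -0.01 to 0.05). The causes were not tested. The GN average of Igf1 stayed between 1.16 and 1.37 with any 1 library left out, and the interaction of Igf2 between -13.77 and -13.15.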
